A study of Mus musculus with 4 samples.

Results

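The 10 genes described here are immediate early genes: Fos, Fosb, Jun, Junb, Egr1, Ier2, Dusp1, Atf3, Zfp36 and Klf4. They were taken by name from the non-control probes of the arrays, where they make up 10 of 27845 gene names and are read by 13 probes in 31 spots per array. Immediate early genes are transcribed within minutes of a stimulus, without new protein synthesis, when kinases activate factors such as SRF with its ternary complex partners and CREB at their promoters. Growth factors such as FGF switch them on through ERK, and so do wounding, warming and the dissociation of tissue, which is why they are also read as a sign of how tissue was handled. Their messages decay quickly, and several of their products act in feedback to end the response.

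RNA came from posterior parts of mouse embryos with 5 to 6 somites, cut at the last somite boundary. Tissue of 10 embryos was pooled for each of the genotypes, wildtype and Cdx2+/-Cdx4-/-. The latter is heterozygous for the caudal homeobox gene Cdx2 and labelled -/- for the related gene Cdx4. The labels name no agent given to either group. The construction of the mutant alleles, the age and sex of the embryos and the time from dissection to storage in RNAlater are not given in the sources used here. Each of 4 Agilent arrays of 2 colours carried both RNAs, and the arrays are labelled replicate 1, replicate 1 dye swap, replicate 2 and replicate 2 dye swap. All values per array below follow that order.

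The genotype labels of the channels conflict between arrays. The log2 ratio of Cy5 to Cy3 at the Cdx4 probe (chromosome X, 99532694 to 99532753) was -2.59, -2.11, 2.82 and 2.42. Read by the labels, the mutant had less Cdx4 RNA than wildtype on replicate 1 and on the dye swap of replicate 2, but more of it on the remaining 2 arrays. The log2 ratios correlated at 0.82 between the arrays of replicate 1 and at 0.87 between those of replicate 2 over the 21801 probes tested, although each pair is labelled as a dye swap, and at -0.38 to -0.44 between arrays of different replicates. Every array was therefore turned so that the Cdx4 ratio is negative, and the turned value is called the aligned log2 ratio of mutant over wildtype. This sign is that of the labels on replicate 1 and on the dye swap of replicate 2, and every direction below turns round if the labels of the other 2 arrays are the right ones. Aligned, the mutant is in Cy5 on both arrays of replicate 1 and in Cy3 on both arrays of replicate 2, so dye and replicate number cannot be told apart. Cdx2 had aligned log2 ratios of -0.77, -0.50, -0.45 and -0.45. Taken with the signs of the labels, no member's log2 ratio was beyond 0.05 from 0 on its brightest probe, and 0 of 9 were called, as were 0.0997% of all probes. Labelled signs are opposite on the 2 arrays of each replicate while their Cy5 to Cy3 ratios are alike, so such means tend to cancel. Cdx4 itself was then at -0.02.

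The labelled tissue was checked against its markers. All 10 markers of the posterior embryo, such as T and Wnt3a, were well above background, and none of the 5 head markers was. The share of spots well above background ranged from 50.6% to 56.4% in Cy3 and from 58.9% to 64.9% in Cy5, and 21801 of 41174 probes were tested.

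The promoters of 8 of the 10 members were found in the RefSeq table (GRCm38.p6), and the 250 bases before the start of transcription were searched on both strands. Those of Junb, Atf3 and Klf4, the 3 members lowest in the mutant, are shown beside those of Dusp1 and Fos, because all 5 hold the letters that CREB and ATF proteins bind; capitals mark every match of the motifs given below them. Junb lies at chr8:84978749-84978998, minus strand. Atf3 lies at chr1:191183334-191183583, minus strand, Klf4 at chr4:55532476-55532725, minus strand, Dusp1 at chr17:26508473-26508722, minus strand, and Fos at chr12:85473640-85473889, plus strand. Each sequence runs along the strand of its gene and ends at the base before the start.

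Junb: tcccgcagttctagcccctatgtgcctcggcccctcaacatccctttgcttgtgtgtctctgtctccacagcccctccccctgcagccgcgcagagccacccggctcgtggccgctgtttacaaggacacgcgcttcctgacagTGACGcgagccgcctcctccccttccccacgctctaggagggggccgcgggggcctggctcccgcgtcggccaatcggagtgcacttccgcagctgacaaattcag
Atf3: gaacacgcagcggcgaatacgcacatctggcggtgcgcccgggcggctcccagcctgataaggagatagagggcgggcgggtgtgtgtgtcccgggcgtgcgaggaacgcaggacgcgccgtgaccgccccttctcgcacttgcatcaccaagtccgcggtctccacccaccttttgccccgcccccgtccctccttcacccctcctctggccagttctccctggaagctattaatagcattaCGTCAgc
Klf4: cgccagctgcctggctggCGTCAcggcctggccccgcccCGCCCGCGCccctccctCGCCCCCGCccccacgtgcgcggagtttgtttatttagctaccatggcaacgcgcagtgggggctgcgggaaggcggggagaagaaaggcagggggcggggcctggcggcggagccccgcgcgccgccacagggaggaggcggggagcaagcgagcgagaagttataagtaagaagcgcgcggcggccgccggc
Dusp1: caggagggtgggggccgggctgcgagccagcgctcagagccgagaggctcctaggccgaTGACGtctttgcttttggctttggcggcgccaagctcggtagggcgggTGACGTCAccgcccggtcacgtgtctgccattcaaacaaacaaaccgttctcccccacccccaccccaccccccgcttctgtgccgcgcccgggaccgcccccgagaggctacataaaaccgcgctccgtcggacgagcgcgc
Fos: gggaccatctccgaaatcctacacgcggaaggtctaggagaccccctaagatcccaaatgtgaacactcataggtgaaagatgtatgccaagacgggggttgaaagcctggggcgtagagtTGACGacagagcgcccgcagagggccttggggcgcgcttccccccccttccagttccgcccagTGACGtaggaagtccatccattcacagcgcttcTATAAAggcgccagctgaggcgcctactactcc

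The core TGACG of the cyclic AMP response element was found in 6 of 8 promoters (Atf3, Dusp1, Fos, Fosb, Junb and Klf4), and in 17.8% of all 32851 promoter windows of this length. The full element TGACGTCA, which holds the core on both strands, was found in Dusp1 alone among the 8, at -143 to -136, and in 1.55% of all windows. The site GCGNGGGCG read by EGR proteins was in 3 of 8 (Fosb, Klf4 and Zfp36) against 4.7% of all windows. In Klf4 it occurs at -211 to -203 and again at -194 to -186, both on the strand opposite to the gene. The CArG box, the core of the serum response element, was in 1 of 8 (Zfp36, at -58 to -49) against 1.47%, and the TATA box TATAAA in 1 of 8 (Fos, at -33 to -28) against 12.4%. The AP-1 site TGANTCA was in 0 of 8, against 6.75% of all windows. These matches describe letters in the window only. G and C made up 58.4% (Fos) to 74.0% (Klf4) of the members' windows, against a median of 52.4% over all windows. The shares above were not adjusted for this difference.

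The products of Fos, Fosb, Jun and Junb are the leucine zipper subunits that pair to form the transcription factor AP-1. Fos, the classical immediate early gene, was read by 1 probe at chromosome 12, 86366053 to 86366112 (mm8, as are all probe positions here), printed in 10 spots per array. After outlier spots were left out, 0 of its 72 spot values in the 4 arrays and both channels were well above background. The median of its spots was 102, 106, 105 and 103 scanner units in Cy3, between the median (97.8 to 105) and the 95th percentile (109 to 114) of the negative control spots of the same channel. In Cy5 the median was 102, 110, 114 and 108, above the negative controls' 95th percentile of 98.4, 102, 102 and 99.1 on each of the 4 arrays. Fos was therefore not well above background in either genotype, its signal was at most slightly over that of negative controls, and it was not tested. In the other repeated member, Jun, all 78 spot values were well above background, with medians of 234 to 286 in Cy3 and 334 to 403 in Cy5.

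**Figure D1:**
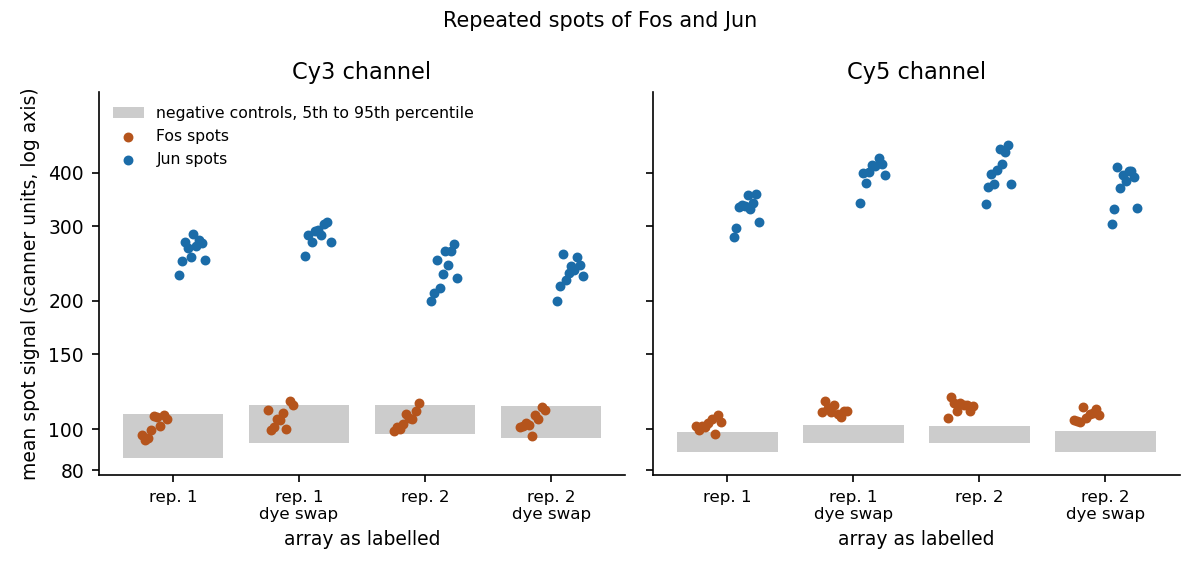
Mean signal of each repeated spot of Fos (orange) and Jun (blue) on the 4 arrays in Cy3 and Cy5, in scanner units on a log axis; grey boxes span the 5th to 95th percentile of negative control spots. Fos lies mostly within the grey boxes in Cy3 and mostly just above them in Cy5, while every Jun spot lies at 200.3 or higher.

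Junb was the member with the largest ratio in size. It was read by 2 probes on chromosome 8, A_51_P159194 at 87867049 to 87867108 and A_51_P159201 at 87867087 to 87867146, which overlap by 22 bases and so are not independent readings. On A_51_P159201 the normalised log2 intensity was 10.07, 10.18, 9.89 and 9.81 in the mutant channel and 10.32, 10.29, 10.57 and 10.61 in the wildtype channel. All 4 mutant values lay below all 4 wildtype values. The aligned log2 ratios were -0.25, -0.11, -0.68 and -0.80, with a mean of -0.46 ± 0.11 (SE, n = 2 replicates), 1.38-fold lower in the mutant (limma, Benjamini-Hochberg adjusted p = 0.0209). It was the only one of the 11 tested member probes to pass, where 5.73% of all 21801 probes passed in either direction and 3.38% did so as lower. Because fewer cells that express a gene and less RNA per cell give the same ratio in pooled tissue, they cannot be told apart for this or any value below.

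The brighter Junb probe, A_51_P159194, gave another picture. Its aligned log2 ratios were 0.03, 0.17, -0.85 and -0.75. The arrays of replicate 1 lay just above 0 and those of replicate 2 well below it, and the mutant and wildtype intensities overlapped. The mean of -0.35 ± 0.14 did not pass (adjusted p = 0.187, 95% interval -0.65 to -0.05). The means of its 2 replicates, 0.10 and -0.80, had an SD of 0.64. The moderated interval is narrower than this scatter alone would give. The call on the other probe was lost without 3 of the 4 arrays in turn, with an adjusted p of 0.26 without the array labelled replicate 1, 0.0622 without replicate 1 dye swap and 0.0894 without replicate 2. It held without replicate 2 dye swap (0.042). Over all probes, 5.73% passed with all 4 arrays. Leaving out 1 array, in the usual order, lowered this to 0.844%, 3.86%, 3.37% and 4.43%. These shares apply to every left-out array below. The Junb call was also absent with scale normalisation between arrays (-0.39, adjusted p = 0.368). It was absent too with each array centred on its median in place of loess (-0.12, adjusted p = 0.987). Both settings called 0 of all 21801 probes, Cdx4 included, so this loss is not particular to Junb. Over the 2 arrays whose labels go with the aligned sign, the log2 ratio of A_51_P159201 was -0.53 (adjusted p = 0.0772), and over the other 2 it was -0.39 (adjusted p = 0.119).

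Fosb and Jun showed no difference that passed. Fosb (chromosome 7, 18461650 to 18461709) had aligned log2 ratios of 0.11, 0.07, -0.20 and -0.07, with a mean of -0.02 ± 0.10 and a 95% interval of -0.23 to 0.18 (adjusted p = 0.956). Jun (chromosome 4, 94541191 to 94541250) had ratios of -0.02, 0.07, -0.22 and -0.10, with a mean of -0.07 ± 0.10 and an interval of -0.27 to 0.13 (adjusted p = 0.822). For both genes the mutant and wildtype intensities overlapped. The Fosb probe was dim, at 2.17 to 2.45 times its local background in Cy3 and 2.24 to 2.86 times in Cy5. The intervals still allow a change of up to 0.27 on the log2 scale, so these values do not show that the genes were unchanged.

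**Figure D2:**
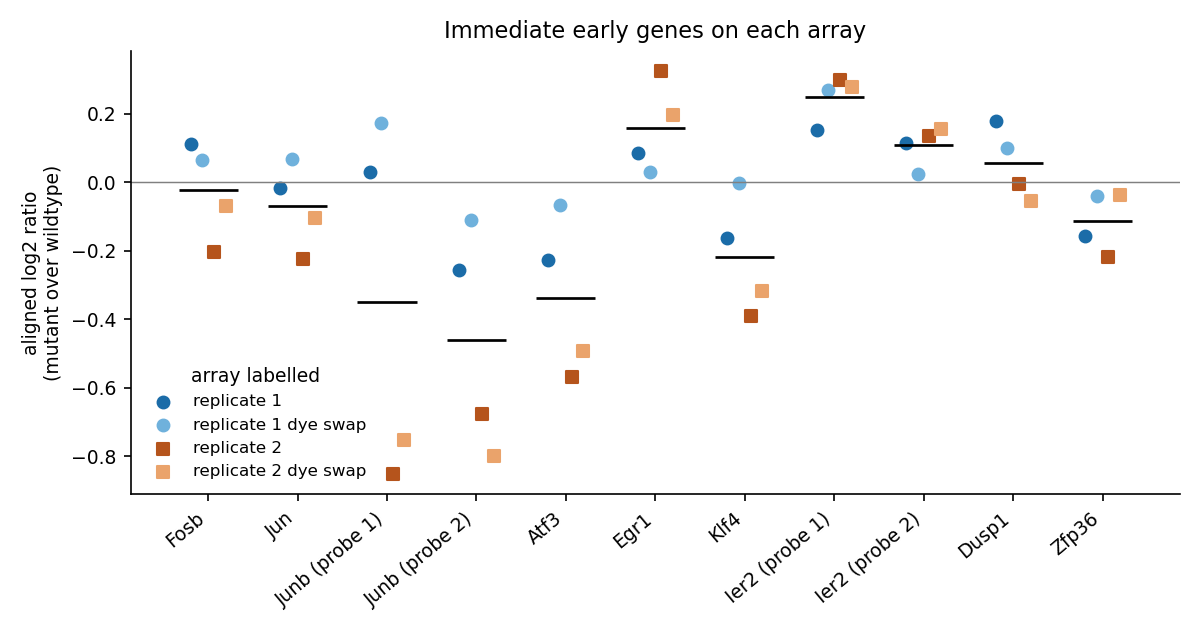
Aligned log2 ratio of mutant over wildtype (vertical axis) of the 11 tested member probes on each array; blue circles are the arrays labelled replicate 1, orange squares those labelled replicate 2, paler symbols the dye swaps, and bars the mean of 4 arrays. Junb (probe 1 is A_51_P159194, probe 2 A_51_P159201), Atf3 and Klf4 lie lower on the arrays of replicate 2 than on those of replicate 1, and the brighter Ier2 probe lies between 0.15 and 0.30 on all 4.

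Atf3 encodes a leucine zipper factor of the CREB and ATF family that is induced by many kinds of cell stress and by injury. Its probe lies on chromosome 1 at 192871283 to 192871342. Its log2 intensity was 9.25, 9.28, 9.02 and 9.06 in the mutant channel and 9.48, 9.34, 9.59 and 9.55 in the wildtype channel, with no overlap between the genotypes. The aligned log2 ratios were -0.23, -0.07, -0.57 and -0.49, below 0 on all 4 arrays. The mean of -0.34 ± 0.10 (95% interval -0.56 to -0.12), 1.26-fold lower in the mutant, just missed the threshold (adjusted p = 0.0663).

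The zinc finger members were Egr1 and Klf4. Egr1 is an early target of ERK and SRF, and its probe lies on chromosome 18 at 34990715 to 34990774. The probe was dim, with a signal of 2.11 to 2.53 times its local background in Cy3 and 1.72 to 2.11 times in Cy5. Its log2 intensity was 7.67, 7.66, 7.81 and 7.76 in the mutant channel and 7.58, 7.63, 7.48 and 7.56 in the wildtype channel, and the genotypes did not overlap. Aligned log2 ratios were 0.09, 0.03, 0.33 and 0.20, above 0 on each array, and their mean of 0.16 ± 0.10 did not pass (95% interval -0.04 to 0.36, adjusted p = 0.439). With the scanner's own signals, which are both background-subtracted and dye-normalised, the ratios were 0.54, 0.33, 0.76 and 0.71, with a mean of 0.59 that passed (adjusted p = 0.0325). With the background step alone changed, the mean was 0.22 (normexp offset 10) and 0.17 (no background correction), and neither passed.

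Klf4, a factor of pluripotent cells and epithelia that is also induced early after serum, had its probe on chromosome 4 at 55549061 to 55549120. Its log2 intensity was 9.03, 9.10, 8.86 and 8.96 in the mutant channel and 9.19, 9.10, 9.25 and 9.28 in the wildtype channel. The genotypes touched without overlapping, and the aligned log2 ratio on the array labelled replicate 1 dye swap was -0.0015. The ratios on the other arrays were -0.16, -0.39 and -0.32, in the order replicate 1, replicate 2 and its dye swap. The mean of -0.22 ± 0.10 (95% interval -0.43 to -0.01) did not pass (adjusted p = 0.258).

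Ier2, a small nuclear protein induced by serum, was read by 2 probes on chromosome 8. On A_51_P481325 (87549655 to 87549689) the log2 intensity was 12.08, 12.15, 12.30 and 12.34 in the mutant channel and 11.93, 11.88, 12.00 and 12.06 in the wildtype channel. Every mutant value lay above every wildtype value. The aligned log2 ratios were 0.15, 0.27, 0.30 and 0.28, with a mean of 0.25 ± 0.09 (95% interval 0.05 to 0.45) that did not pass (adjusted p = 0.152). The dimmer probe A_52_P554555 (87549829 to 87549887) had ratios of 0.12, 0.03, 0.14 and 0.16, all above 0, and a mean of 0.11 ± 0.09 (adjusted p = 0.649).

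The 2 remaining members end the response. Dusp1 is a phosphatase that inactivates MAP kinases, with its probe on chromosome 17 at 26233451 to 26233508. Its aligned log2 ratios of 0.18, 0.10, -0.01 and -0.05 fell on both sides of 0, and the mean was 0.06 ± 0.10 (95% interval -0.15 to 0.26, adjusted p = 0.866). Zfp36 binds AU-rich elements and speeds the decay of early messages. On its brighter probe (chromosome 7, 28085873 to 28085932) the ratios were -0.16, -0.04, -0.22 and -0.04, with a mean of -0.11 ± 0.09 (95% interval -0.31 to 0.08, adjusted p = 0.626). With the scanner's own signals they were -0.71, -0.37, -0.51 and -0.25, with a mean of -0.46 (adjusted p = 0.0605), which passed in the dye-balanced pairs described below (0.0326). This brighter Zfp36 probe was itself dim, at 2.40 to 2.63 times its local background in Cy3 and 1.84 to 2.55 times in Cy5. The other Zfp36 probe (28085681 to 28085740) was well above background in 0 of 8 array channels and was not tested.

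**Figure D3:**
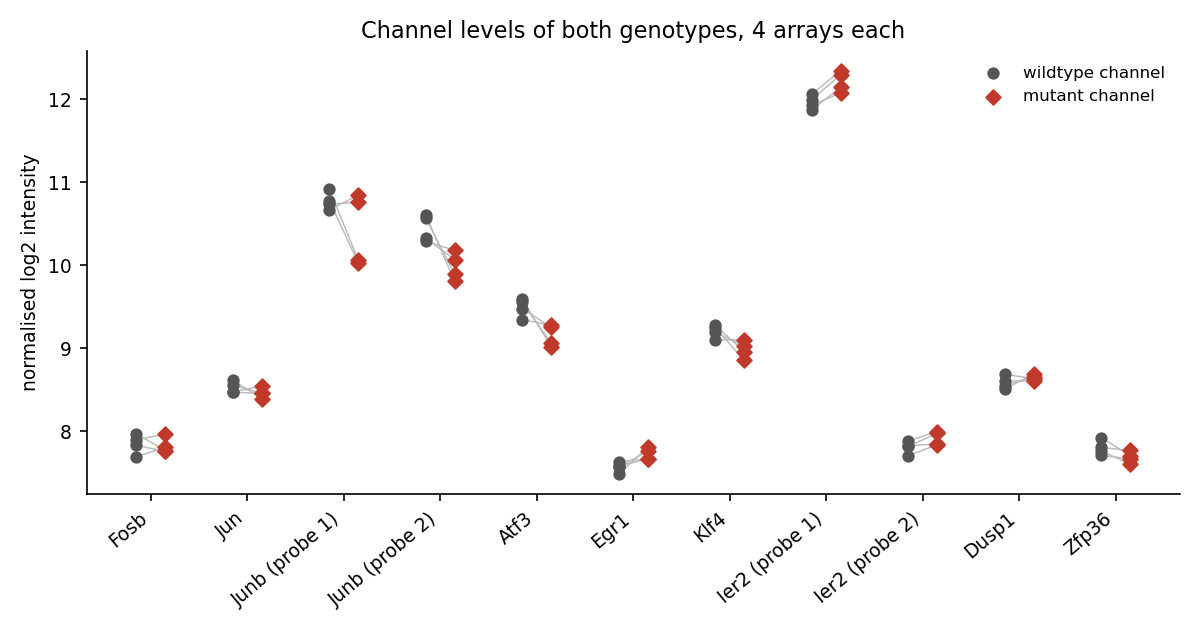
Normalised log2 intensity (vertical axis) of the 11 tested member probes in the wildtype channel (grey circles) and the mutant channel (red diamonds), with a line joining the channels of each of the 4 arrays. Levels of different probes are not comparable; within a probe the genotypes do not overlap for Junb probe 2, Atf3, Egr1, Klf4 and Ier2 probe 1.

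Across the members, 9 of 10 genes had a tested probe, and on the brightest probe of each 0 of 9 passed after adjustment over all probes in limma. At an unadjusted p under 0.05, 4 of 9 did (Atf3, Ier2, Junb and Klf4), as did 17.4% of all probes. Ratios had the same sign on all 4 arrays for 7 of 11 probes, 3 higher and 4 lower, against 42.0% of all tested probes (22.5% higher, 19.4% lower). Genotype intensities did not overlap for 5 of 11, 2 higher and 3 lower, against 24.9% of all probes (12.8% higher, 12.1% lower). The members did not share a direction: 3 genes were above 0 and 6 below it. Their median log2 ratio was -0.07, beside 0.01 over all tested probes, and it was 0.06 on the arrays of replicate 1 and -0.14 on those of replicate 2.

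How many members passed depended on which arrays were averaged into a replicate. The values above average the arrays that share a labelled number. If instead the labels of 2 arrays had been exchanged, the arrays labelled replicate 1 and 2 would form a dye-balanced pair, and their 2 dye swaps another. In that pairing 5 of 9 genes passed, Egr1 and Ier2 as higher and Junb, Atf3 and Klf4 as lower, where 37.5% of all probes passed (19.4% as higher, 18.1% as lower). Adjusted p was 2.69e-10 for Junb, 1.1e-09 for Atf3, 1.18e-05 for Ier2, 0.000166 for Klf4 and 0.00785 for Egr1. It was 0.768 for Fosb, 0.317 for Jun, 0.429 for Dusp1 and 0.0733 for Zfp36. Each dye-balanced pair holds 1 array of either labelled number, so the difference between replicate numbers cancels and does not enter these p-values. That difference was large for the brighter Junb probe, with means of 0.10 on replicate 1 and -0.80 on replicate 2. A term for dye over the 4 single arrays gave the same 5 genes (42.2% of all probes), and pairing each array with the dye swap of the other number added Zfp36 to them (50.5%). The dye term is the same as a term for replicate number here, and it counts the 4 arrays as separate units. Both fits thus also leave the difference between replicate numbers out of the spread. Junb A_51_P159201 passed in dye-balanced pairs and in both of these fits.

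**Figure D4:**
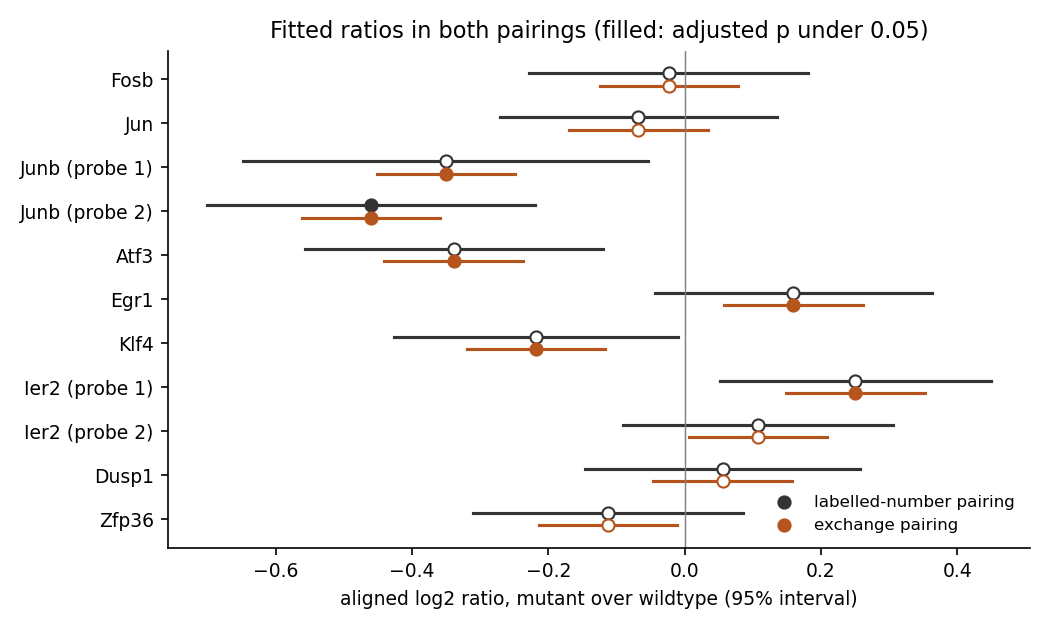
Fitted aligned log2 ratio of mutant over wildtype (horizontal axis) with its 95% interval for each tested member probe, averaging arrays by labelled number (dark) or in dye-balanced pairs (orange); filled points passed at an adjusted p under 0.05. The estimates are the same in both, and 1 probe is filled by labelled number against 6 in dye-balanced pairs.

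Other genes of the same response gave no common direction either. Of 49 further immediate early genes listed, 47 were on the array and 35 had a tested probe; 1 passed as higher and 2 as lower (backgrounds of 2.35% and 3.38%), with a median log2 ratio of -0.01. Gadd45a, a stress-induced gene of growth arrest, rose, with log2 ratios of 0.44, 0.62, 0.49 and 0.49 and a mean of 0.51 ± 0.09 (adjusted p = 0.00263). Its relative Gadd45g fell on every array, with ratios of -0.96, -0.90, -0.91 and -0.87 and a mean of -0.91 ± 0.09 (adjusted p = 8.33e-06). Dusp2, a nuclear MAP kinase phosphatase, fell by 0.47 ± 0.10 on the log2 scale (adjusted p = 0.00732). Gadd45a and Gadd45g passed without each array in turn, while Dusp2 did not without the array labelled replicate 1 (adjusted p = 0.119). Klf2 had the next highest mean, 0.33 ± 0.13 (adjusted p = 0.17), but 1 array was at 1.25 and the others at 0.19, 0.10 and -0.21, and its other probe was at -0.16. The genes not well above background included Fosl1, Fosl2, Egr2, Egr3, Egr4, Nr4a3 and Ier3.

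Among 17 tested regulators of immediate early transcription, none passed as higher and 1 as lower, with a median of -0.05. Mapk8, which encodes the stress kinase JNK1, had log2 ratios of -0.59, -0.36, -0.53 and -0.62 on its brightest probe, with a mean of -0.52 ± 0.09 (adjusted p = 0.0022). Its other tested probe was at -0.05 (adjusted p = 0.886), so the probes of Mapk8 disagreed, and the brightest did not pass without the array labelled replicate 1 (0.0862). Mapkapk2, a kinase downstream of p38, was at 0.25 (adjusted p = 0.256), the ribosomal S6 kinase Rps6ka3 at 0.21 (0.262) and the ternary complex factor Elk4 at -0.27 (0.151).

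Heat shock genes encode chaperones induced by warming and by misfolded protein. Of 17 tested, none passed as higher and 4 as lower, where 2.35% and 3.38% of all probes did. The median was -0.11 against 0.01 over all probes and 15 of 17 lay below 0, but with each array centred on its median in place of loess 3 of 17 did, and 8 of 17 lay below the median of all probes. The 4 were Hsp90aa1 at -0.50 ± 0.10 (adjusted p = 0.00421), Hspa1a at -0.44 ± 0.10 (0.0149), Hspb8 at -0.40 ± 0.09 (0.0163) and Hsp90ab1 at -0.38 ± 0.10 (0.0277). With that centring, Hsp90aa1 turned to 0.19 and Hsp90ab1 to 0.30, where the median of all tested probes was itself 0.23. Hspa1a and Hspb8 stayed below 0 there. Left-out arrays ended each call: Hsp90aa1 without replicate 1 dye swap (adjusted p = 0.0723), Hspb8 without replicate 1 (0.159), Hspa1a without replicate 1 (0.225) or replicate 2 (0.0719), and Hsp90ab1 without any of the 4 (0.0644 to 0.131). Fewer of all probes passed in those runs too. The share was 0.844% without replicate 1 and 3.37% to 4.43% without another array, against 5.73% with all 4. Second probes did not pass for Hspa1a (-0.34, adjusted p = 0.0746) or Hsp90ab1 (-0.24, 0.301). Hspa1a and Hspa1b are near-identical copies whose signals may be shared, and the Hspa1b probe was at -0.11. The highest values were Cryab at 0.19 (adjusted p = 0.303) and Hsf1, the heat shock factor, at 0.07 (0.873).

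The integrated stress response, through which ATF4 raises amino acid synthesis and chaperone genes, had 17 tested genes with a median of -0.09; none passed as higher and 1 as lower. That gene was the lipoprotein receptor Vldlr at -0.37 ± 0.09 (adjusted p = 0.024), its other probe was at -0.27 (0.121), and it did not pass without replicate 1 (0.178) or replicate 2 dye swap (0.0645). Hspa5, the chaperone BiP of the endoplasmic reticulum, was next lowest at -0.31 (adjusted p = 0.0761), but at 0.31 when arrays were centred on their medians. The highest were Herpud1, a factor of protein degradation at the same membrane, at 0.16 (0.438), and the leucine zipper gene Cebpg at 0.12 (0.592). Of 12 tested feedback genes of FGF and ERK signalling, which is active in the posterior embryo, none passed as higher and 1 as lower, with a median of 0.11. Dusp4, a nuclear ERK phosphatase, fell on every array, with ratios of -0.39, -0.42, -0.90 and -0.78 and a mean of -0.62 ± 0.11 (adjusted p = 0.00151), and it passed on its other probe too (-0.39, adjusted p = 0.0216). Without the array labelled replicate 1 the brightest Dusp4 probe did not pass (adjusted p = 0.0604). Spry2 at 0.33 (adjusted p = 0.0612) and Dusp6 at 0.25 (0.174), both inhibitors of this pathway, did not pass, nor did the inhibitor Spry1 at -0.07 (0.796), the next lowest.

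**Figure D5:**
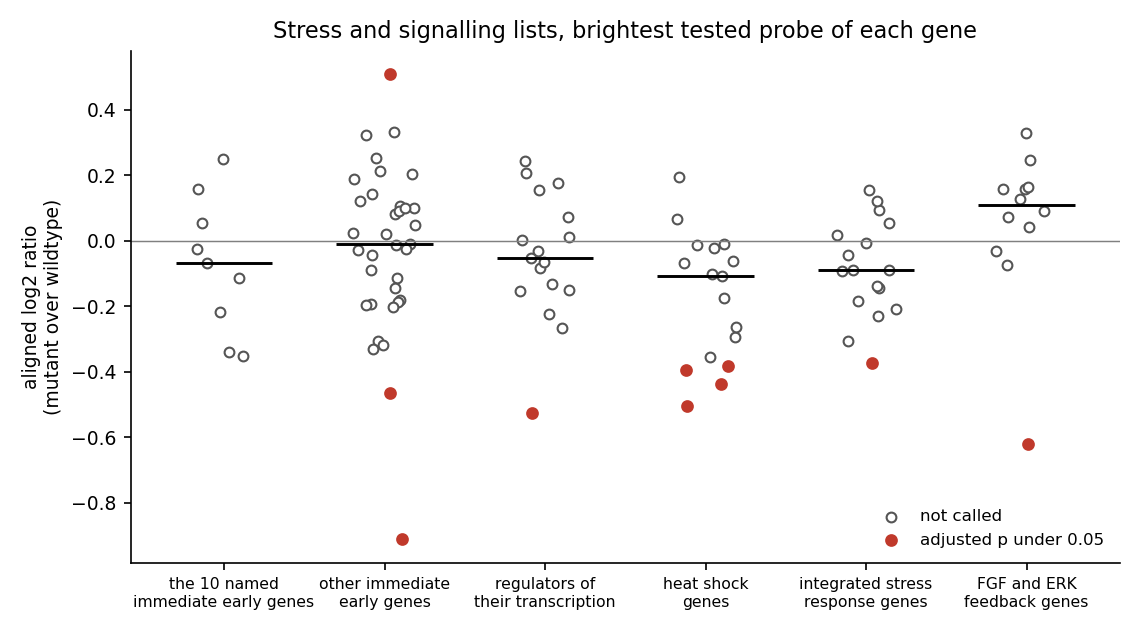
Aligned log2 ratio of mutant over wildtype (vertical axis) of each tested gene, on its brightest probe, in the 10 named immediate early genes and 5 lists of related genes; red points passed at an adjusted p under 0.05 and bars mark medians. Filled points are 0 among the named genes, 3 among other immediate early genes, 4 among heat shock genes and 1 in each remaining list.

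Markers of other tissues moved with genotype beside these values. Over all probes, 3.38% passed as lower and 2.35% as higher. All 12 visceral endoderm markers passed as lower, with a median log2 ratio of -0.71, and their summed log2 intensity was 15.5 on each array in the mutant channel against 16.4 to 16.7 in the wildtype channel. Of 10 endothelial markers 4 passed as lower, and the summed log2 intensity was 13.1 to 13.2 against 13.6 to 13.8. On the brightest probes 9 of 10 lay below 0, but Pecam1, Tek and Tie1 only at -0.05, -0.05 and -0.04. Emcn was above 0 on all 4 arrays, with a mean of 0.26 that did not pass (adjusted p = 0.131). Primitive erythroid globins went the other way: 3 of the 4 erythroid markers tested passed as higher, with a sum over the 4 of 12.3 to 12.5 against 11.1 to 11.3. The remaining marker, Alas2, was at 0.003 (adjusted p = 0.994), while Gata1 and Klf1 were not well above background. Of 5 macrophage markers on the array, Cd68 alone was tested, at -0.04 (adjusted p = 0.907), and the other 4 were not well above background. The 10 markers of the posterior embryo itself had a median of 0.16, with 8 above 0 and 2 below it. Wnt3a passed as higher (0.34, adjusted p = 0.0362) and Cyp26a1 as lower (-0.65, adjusted p = 0.000375). The part of these tissues in the values of Junb, Atf3, Klf4 and the heat shock genes was not tested.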

How the data were processed

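The authors scanned 4 arrays and extracted spots with Agilent Feature Extraction 9.5.3 (submitters' processing notes). Each deposited scanner file lists, per the file headers, intensity values (mean signal and median local background of each spot), the log10 ratio between Cy5 and Cy3, and its p-value. The authors' series table holds log10 values that equalled the scanner's log ratio in 100% of features (tolerance 1e-05, sign turned on dye swaps). Each column had a median of 0.

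With limma 3.58.1 in R 4.3.3, normexp (offset 50) removed background and loess normalised each array, with control spots at weight 0. Outlier spots (103 to 167 per array) were left out and the remaining spots of a probe averaged. A probe was tested if at least a share of 0.5 of its spots exceeded the scanner's well-above-background limit in the channel of 1 genotype or more, on every array. A gene was read by its brightest tested probe. Arrays were aligned on Cdx4, averaged by labelled replicate number, and fitted with lmFit and eBayes (1 residual and 17.2 prior degrees of freedom), with Benjamini-Hochberg adjustment over all tested probes and a threshold of 0.05. In the dye-balanced pairing the prior was infinite and nearly all probes share a standard error of 0.05. On simulated data, fitting by labelled number recovered 84% of probes changed by 0.5 on the log2 scale and 100% of those changed by 1, with 6 false calls. The simulation gave all probes 1 common spread, no dye effect, and the same value on both arrays of a replicate. Its figures therefore need not hold for the real arrays. No change smaller than 0.5 was simulated, while every member's mean in this fit was smaller in size. Recovery of changes as small as those of the members was therefore not measured.

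The members, lists and alignment were chosen with earlier results of these data known. All members are named, with every called gene of the lists and, where fewer than 2 were called in a direction, the 2 most extreme. No label states separate embryo pools for the replicates, so each p-value reflects only how far these hybridisations scatter, possibly for technical reasons. All 4 arrays lie on 1 slide. The number of arrays limits precision. Probe positions are those in the scanner files (mm8); no gene models on that build were used here.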

Additional observations from a re-analysis of the deposited data

How the results depend on the processing

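The median of the members ranged over the alternative runs from -0.14 without both arrays of replicate 1 to 0.06 without both arrays of replicate 2. These ends are the medians of the single replicates, and every move was less than their SD of 0.14. Dropping 1 of 2 replicates nearly fixes that outcome in advance, so it does not show that the median is robust. The number of members passing, 0, became 5 in dye-balanced pairs (37.5% of all probes). It was 6 when each array was paired with the dye swap of the other number (50.5%), and 5 with a dye term (42.2%). It became 1 without background correction (Atf3, 7.77% of all probes) and 1 with the scanner's processed signals (Egr1, 8.97%). The authors' series table holds the same ratios as the latter and gave the same result. Leaving out any 1 array kept the number at 0, where 0.844% to 4.43% of all probes passed.

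The 10 list genes passing became 53, 66 and 58 in the same 3 fits, 0 with signs as labelled, 0 with median centring, 0 with scale normalisation and 0 with no filter on dim probes. They were 3 to 8 with 1 array left out. Over all probes, median centring called 0 (314 at an unadjusted p under 0.05) and scale normalisation 0 (2509). Signs as labelled called 0.0997% of all probes, no filter on dim probes 0.0389%, and 1 array left out 0.844% to 4.43%. Alternatives chosen after the data were seen gave 6 members and 45 list genes (dye-balanced pairs with processed signals), 0 and 0 (with median centring), and 0 and 7 (only the 2 arrays whose labels go with the alignment). Of all probes, 42.7%, 0% and 3.22% passed in these.

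Median centring put the median of all tested probes at 0.23. It turned Junb to 0.03, Klf4 to 0.01, Jun to 0.08 and Fosb to 0.02, and relative to 0.23 these were -0.20, -0.22, -0.15 and -0.20. Atf3 was then -0.31, Ier2 0.48 and Egr1 -0.06 relative to all probes. The medians of the regulator, heat shock and integrated stress response lists turned to 0.32, 0.30 and 0.31 (0.09, 0.08 and 0.08 relative to all probes). Junb A_51_P159201 was at -0.12 (-0.35 relative to them). Hsp90aa1 turned to 0.19 and Hsp90ab1 to 0.30, also in dye-balanced pairs. The causes of these turns under median centring were not tested. With signs as labelled, Gadd45a turned to -0.046, Dusp2 to 0.014, Hspa1a to 0.047, Hsp90ab1 to 0.0077 and Dusp4 to 0.037. Labelled signs are opposite within each replicate, so these means tend to cancel, and Cdx4 was at -0.020 as well. Such values therefore say nothing about the direction of a gene.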
